A study of Mus musculus with 18 samples.

Results

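The 10 genes described here, Myh6, Myl4, Myl7, Actc1, Tnni3, Tnnt2, Nppa, Sln, Mybpc3 and Ryr2, are genes of heart muscle. They are grouped here as genes of the cardiomyocytes that sheathe the pulmonary veins in the mouse lung. They were taken by name, and each probe whose RefSeq accession maps to 1 of them was used. All 10 were on the array, with 11 probes on 20 spots, among 20660 genes that could be named. Myh6 had 2 probes and the Nppa probe was spotted 10 times. For Myh6, the probe with the higher mean Cy5 intensity stands for the gene.

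Lung RNA came from 18 male MutaTMMouse, a transgenic reporter strain (on a BALB/C-DBA/2 background), aged about 12 weeks and dosed by gavage on each of 28 days, with tissue taken 72 h after the last dose. The 5 vehicle mice (mice 1 to 5) received olive oil. The other mice received the 4PAH-Mix (benzo[a]pyrene, benz[a]anthracene, benzo[b]fluoranthene and chrysene) in olive oil at 12.5 (low dose, mice 6, 7, 9 and 10), 25 (medium dose, mice 11 to 15) or 50 (high dose, mice 16, 17, 18 and 20) mg BaP equivalents/kg-bw/day. On each array, Cy5 marked the RNA of 1 mouse and Cy3 marked Universal Mouse Reference RNA from 11 mouse cell lines, with no dye swap. The labels say that RNA came from random sections of the lung, and the methods name the right lobe. Values are log2 ratios of lung RNA over the reference after loess within each array, unless intensity is named.

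In the mouse, the wall of the pulmonary veins holds a sleeve of heart muscle that is continuous with the left atrium and reaches into the lung. These cells contract and carry the heart's action potential, and they use the atrial set of sarcomere proteins. Myh6 is the alpha myosin heavy chain. Myl4 and Myl7 are the atrial essential and regulatory myosin light chains. Actc1 is cardiac alpha actin. Tnni3 and Tnnt2 are cardiac troponins I and T, and Mybpc3 is cardiac myosin binding protein C. Ryr2 is the calcium release channel of the sarcoplasmic reticulum, Sln (sarcolipin) is an inhibitor of the calcium pump that atrial muscle uses, and Nppa encodes the atrial natriuretic peptide.

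The stretches before the annotated starts of 4 of the genes are shown, from RefSeq on GRCm38.p6. Each holds the 250 bases before the start in the direction of the gene, 5′ to 3′. Myh6 lies at chr14:54966608-54966857 on the minus strand, Myl7 at chr11:5898783-5899032 on the minus strand, Actc1 at chr2:114052876-114053125 on the minus strand and Nppa at chr4:148000472-148000721 on the plus strand. Myh6 and Myl7 were chosen as genes with a wide range between mice, Actc1 as a gene with a narrower one and Nppa as the gene with the narrowest. Capitals mark matches, on either strand, to the MEF2 site, the CArG box, GATA (GATA with A or T before it and A or G after it), TEAD (CATTCC), T-box (AGGTGT) or NKX2-5 (TNAAGTG) motif.
Myh6: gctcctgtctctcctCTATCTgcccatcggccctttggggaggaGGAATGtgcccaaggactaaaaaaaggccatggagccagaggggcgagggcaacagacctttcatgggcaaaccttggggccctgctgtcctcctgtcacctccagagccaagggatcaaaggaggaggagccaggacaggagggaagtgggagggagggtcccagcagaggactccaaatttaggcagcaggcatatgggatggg
Myl7: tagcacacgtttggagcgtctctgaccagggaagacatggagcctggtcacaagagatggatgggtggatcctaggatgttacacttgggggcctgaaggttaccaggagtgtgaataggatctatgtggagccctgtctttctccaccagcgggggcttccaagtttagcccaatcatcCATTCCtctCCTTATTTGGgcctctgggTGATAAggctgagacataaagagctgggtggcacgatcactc
Actc1: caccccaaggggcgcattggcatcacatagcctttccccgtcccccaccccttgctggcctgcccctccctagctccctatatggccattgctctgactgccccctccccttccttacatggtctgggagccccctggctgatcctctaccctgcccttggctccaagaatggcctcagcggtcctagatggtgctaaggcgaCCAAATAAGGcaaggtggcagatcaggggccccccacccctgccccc
Nppa: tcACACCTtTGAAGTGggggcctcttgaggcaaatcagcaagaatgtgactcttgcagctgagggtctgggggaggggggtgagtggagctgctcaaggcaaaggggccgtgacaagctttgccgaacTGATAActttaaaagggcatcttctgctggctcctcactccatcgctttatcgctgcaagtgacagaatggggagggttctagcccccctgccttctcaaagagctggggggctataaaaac

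The capitals in Myh6 are a GATA and a TEAD match. Those in Myl7 are a TEAD match, a CArG box and a GATA match, in that order. Actc1 held a CArG box. Nppa held a T-box, an NKX2-5 and a GATA match. No match overlapped another. The table held entries for 9 of the genes, with 2 starts for Tnnt2, and Sln had no entry. Over these 10 stretches, 5 held a GATA match, 3 TEAD, 2 T-box, 2 CArG, 1 MEF2 and 1 NKX2-5. Over all 32851 promoters in the table the shares were 26.5% for GATA, 12.6% for TEAD, 11.8% for T-box, 1.47% for CArG, 2.92% for MEF2 and 10.1% for NKX2-5. A match describes letters in these windows and not binding, and its part in the variation between mice was not tested. The same reading holds for a missing match.

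The labelled tissue matched its markers: Sftpc, Sftpb, Sftpa1, Ager, Scgb1a1 and Hopx, genes of lung epithelium, were well above background in Cy5 on all 18 arrays. Between 51.5% and 61.1% of all probes were well above background in Cy5. The arrays lay on 3 slides, each with mice of all 4 groups, and the column on the slide followed the dose group, so column and dose cannot be told apart. As bulk RNA, these values cannot separate fewer cardiomyocytes from less RNA per cardiomyocyte.

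The heart muscle genes differed greatly from mouse to mouse within each group. The log2 ratio of Myh6 was 5.95, 1.67, 5.58, 0.75 and 6.16 in vehicle mice 1 to 5. In the low-dose mice 6, 7, 9 and 10 it was 6.42, 3.30, 4.99 and 5.70. In the medium-dose mice 11 to 15 it was 5.50, 4.25, 5.58, 0.49 and 5.64. In the high-dose mice 16, 17, 18 and 20 it was 3.06, 5.48, 1.22 and 6.10. Low values below 2 stood beside values above 5 in the vehicle, medium and high groups. No group was separate from another. The Cy5 intensity of Myh6 ran from 154.5 in mouse 14 to 59160 in mouse 6, a range of 383-fold. The second, dimmer Myh6 probe ran in the same direction, from a log2 ratio of -0.09 in mouse 18 to 2.99 in mouse 6. In mice 2, 4, 7, 9, 12, 14, 16 and 18 it was not well above background in Cy5, so its low values lie near background.

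The atrial light chains varied in the same mice. Myl4 was at 3.02, 0.07, 2.81, -0.37 and 3.99 in vehicle mice 1 to 5, at 5.45, 1.08, 1.96 and 3.08 in the low-dose mice, at 2.97, 1.79, 3.30, 0.33 and 3.46 in the medium-dose mice and at 0.59, 3.23, 0.51 and 4.49 in the high-dose mice. Its lowest value was in mouse 4, and its highest in mouse 6. Myl7 was at 3.89, 0.24, 3.81, 0.41 and 4.34 in vehicle mice 1 to 5, at 5.27, 1.21, 2.38 and 4.05 in the low-dose mice, at 3.80, 2.43, 3.61, -0.10 and 3.76 in the medium-dose mice and at 0.42, 3.25, 0.06 and 4.63 in the high-dose mice. Mice 2, 4, 14, 16 and 18 were below 1 for both light chains. The Cy5 intensity of Myl4 ranged 51.1-fold over the 18 mice. That of Myl7 ran from 80 in mouse 14, where the probe was not well above background, to 5275 in mouse 6.

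Sln, the calcium pump inhibitor, had the widest range of log2 ratios among the 10 genes. Its log2 ratio was 4.59, 1.03, 4.68, 0.04 and 5.20 in vehicle mice 1 to 5, 1.95 to 6.18 over the low-dose mice (median 4.12), -0.05 to 4.74 over the medium-dose mice (median 4.22) and 0.20 to 5.27 over the high-dose mice (median 3.16). The Sln probe was well above background in Cy5 on 15 of 18 arrays and in Cy3 on 3. The Myl7 probe was so on 16 and 10 arrays. The lowest values of both genes therefore lie near background, where the ratio understates the range.

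The cardiac troponins varied over a smaller range, again with mouse 6 at the top. Tnni3 ran from 0.34 to 3.11 in vehicle mice (median 2.40), 1.19 to 4.45 in low-dose mice (median 2.17), 0.59 to 2.97 in medium-dose mice (median 2.48) and 0.72 to 3.34 in high-dose mice (median 1.77). Tnnt2 ran from -0.77 to 2.53 in vehicle mice (median 1.60), -0.22 to 3.51 at the low dose (median 1.39), -0.09 to 1.87 at the medium dose (median 1.51) and -0.87 to 2.39 at the high dose (median 0.64). In every group the ranges of both genes overlapped those of the others. Mybpc3 lay below the reference RNA in every mouse, from -3.54 in mouse 16 to -0.21 in mouse 6, and Ryr2 ran from 0.01 in mouse 4 to 1.62 in mouse 6. The Ryr2 probe was dim, with Cy5 intensities of 89.5 to 215.

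Actc1 and Nppa stood apart from these. Actc1 was at 2.65, 2.46, 2.55, 1.94 and 3.04 in vehicle mice 1 to 5, at 3.03, 2.37, 2.24 and 2.81 in the low-dose mice, at 2.15, 2.05, 2.31, 1.95 and 2.27 in the medium-dose mice and at 2.05, 1.94, 1.95 and 2.58 in the high-dose mice. Over all mice it ran from 1.94 to 3.04, narrower than Myh6 (0.49 to 6.42). In mice 4 and 14 the Cy5 intensity of Actc1 was 1911 and 2534. That of Sln was 79 and 79.5 there, not well above background. Which cells gave this Actc1 signal was not tested. Nppa ran only from 0.07 to 0.39, with Cy5 intensities of 107.5 to 135. In mouse 6, where the Cy5 intensity of Myh6 was 59160, that of Nppa was 130. The median local Cy5 background per array was 70 to 79, so the Nppa signal lay close to it. Within an array, the SD over the 10 spots of Nppa was 0.048 to 0.229 (median 0.117), and the residual SD between mice of the mean over these spots was 0.072.

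**Figure D1:**
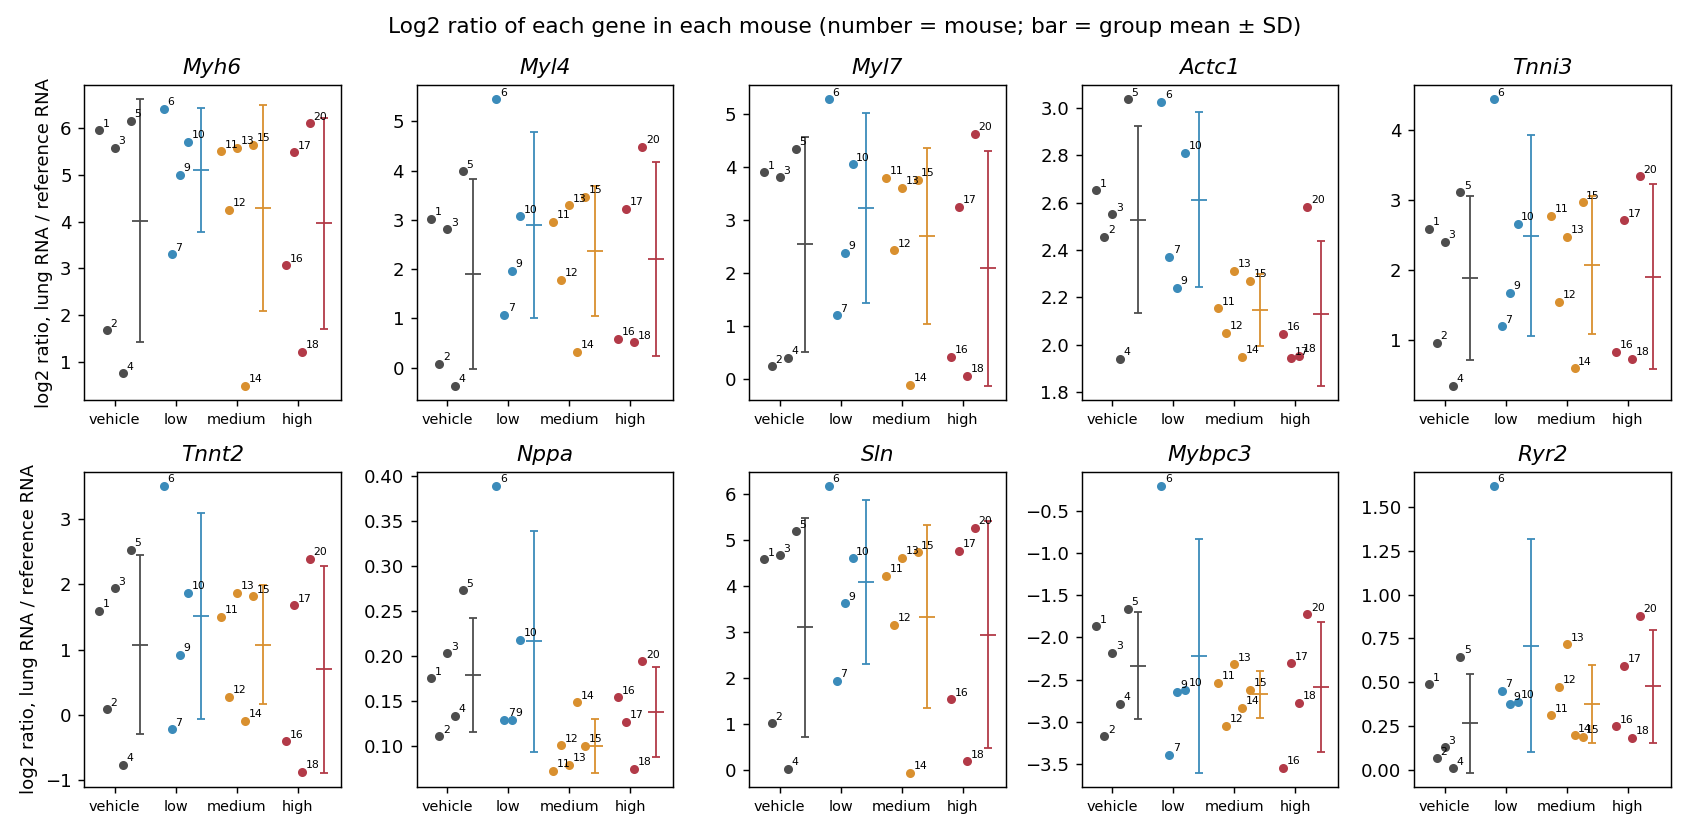
Log2 ratio of lung over reference RNA (vertical axis, scaled separately for each gene) for the 10 genes in the 18 mice, by dose group on the horizontal axis. Numbers beside the points name the mice and bars give the group mean ± SD. For Myh6, the lowest mice of the vehicle, medium and high groups (mice 4, 14 and 18) lie at 0.75, 0.49 and 1.22 and the highest mice of these groups at 6.16, 5.64 and 6.10.

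The spread between mice was a leading feature of these genes. The residual SD of the log2 ratio within groups was 2.19 for Myh6, 2.18 for Sln, 1.92 for Myl7, 1.78 for Myl4, 1.36 for Tnnt2 and 1.22 for Tnni3. The median over all 55681 probes was 0.146 and the highest value of any probe was 2.39. In that order Myh6 was rank 3, Sln 4, Myl7 5, Myl4 6, Tnnt2 19 and Tnni3 29. Mybpc3 (0.82) was rank 89, Ryr2 (0.37) rank 1032, Actc1 (0.32) rank 1829 and Nppa (0.072) rank 55154. Thus 7 of the 10 genes were among the 100 most variable probes. These ranks are descriptions with no test. On the Cy5 channel alone, quantile normalized, the residual SD was 2.93 for Myh6 and 0.59 for Actc1.

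**Figure D2:**
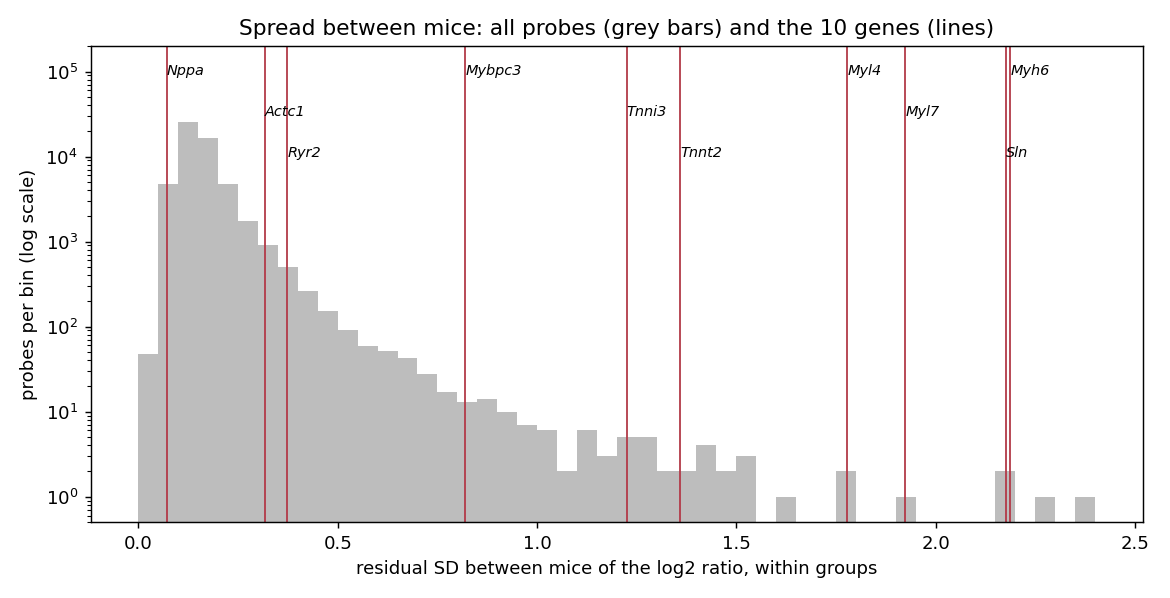
Number of probes (vertical axis, log scale) by residual SD of the log2 ratio between mice within groups (horizontal axis), for all 55681 probes as grey bars, with the 10 genes as red lines. Myh6 (2.19), Sln (2.18), Myl7 (1.92) and Myl4 (1.78) lie far right of the median of 0.146, and Nppa (0.072) lies left of it.

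The genes varied together from mouse to mouse. Over the 18 mice, the log2 ratio of Sln had a Pearson r of 0.987 and a Spearman rho of 0.920 with that of Myh6, Myl7 had 0.958 and 0.971, Myl4 had 0.924 and 0.938, Tnni3 had 0.909 and 0.928, and Tnnt2 had 0.896 and 0.917. Each of these 10 values had a permutation p of 1e-05, the smallest that 100000 permutations can give (1.8e-05 after adjustment over the 9 genes). The r was 0.629 for Actc1 (rho 0.806), 0.614 for Mybpc3 (rho 0.845) and 0.595 for Ryr2 (rho 0.707), with adjusted permutation p of 0.0069, 0.0069 and 0.00826 for r and 0.000244, 3e-05 and 0.00161 for rho. For Nppa, r was 0.417 (adjusted permutation p = 0.081) and rho 0.482 (adjusted permutation p = 0.0461). Without mice 14 and 4, the 2 farthest from the median of Myh6, r was 0.983 for Sln, 0.965 for Myl7, 0.915 for Myl4, 0.887 for Tnni3, 0.908 for Tnnt2, 0.523 for Actc1, 0.682 for Mybpc3, 0.539 for Ryr2 and 0.498 for Nppa. On deviations from the group means r was 0.986 for Sln and 0.433 for Nppa, and the 7 other genes lay between.

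**Figure D3:**
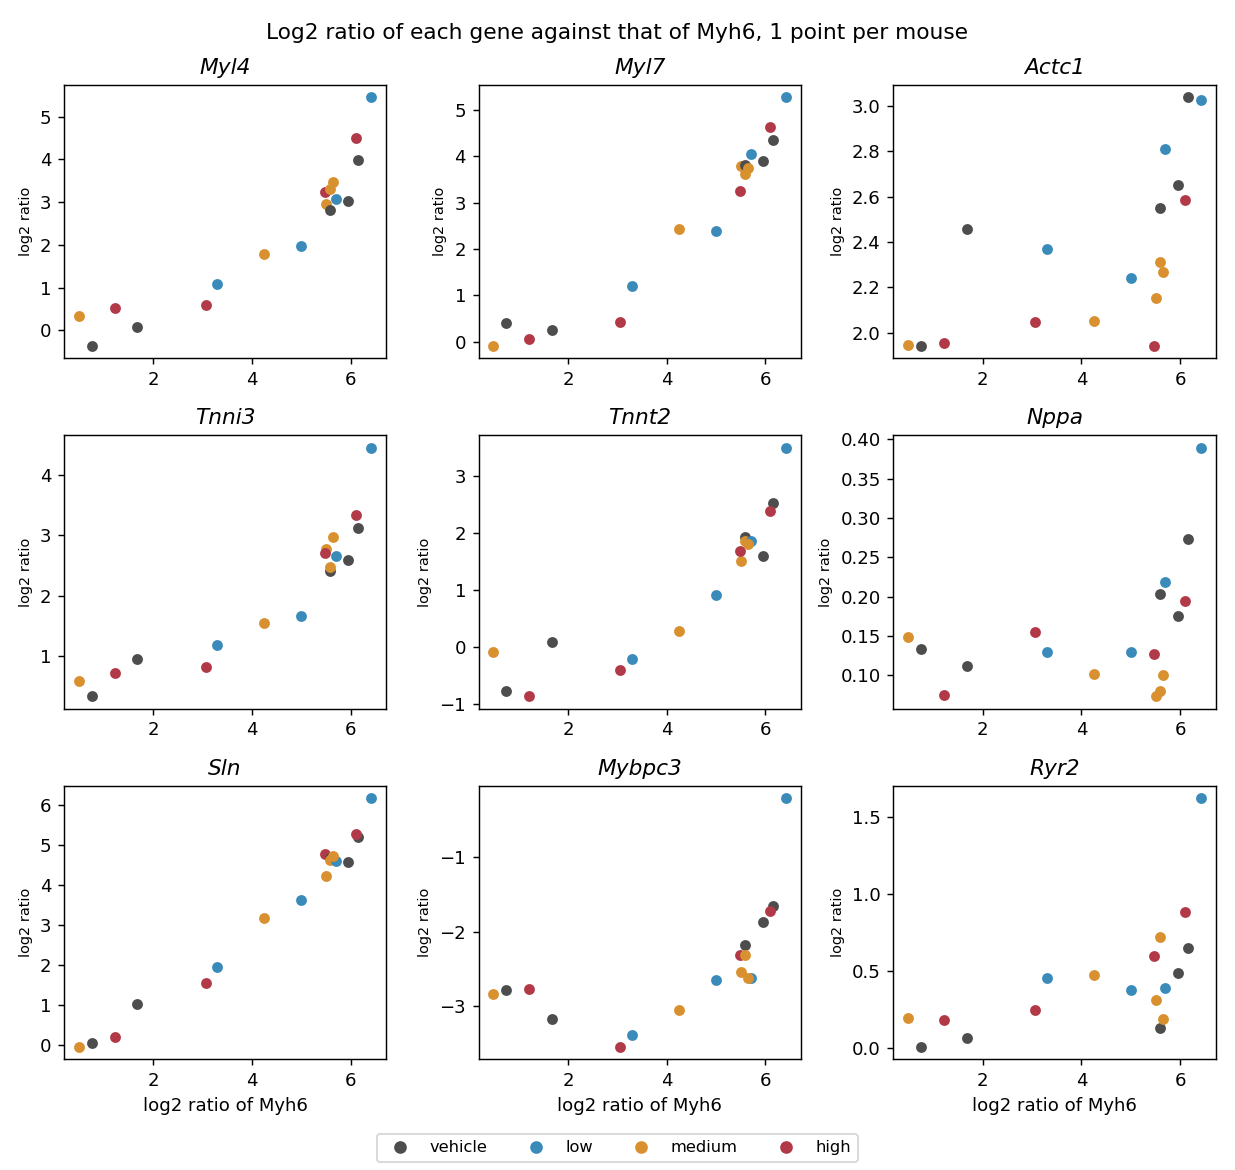
Log2 ratio of each of the 9 other genes (vertical axes) against that of Myh6 (horizontal axis), with 1 point per mouse coloured by dose group. Sln follows Myh6 with r = 0.987 and Nppa with r = 0.417, and mice of all groups lie along the same course.

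The relation was also present within slides. On slide 1 (8 mice) r with Myh6 was 0.971 for Sln, 0.967 for Myl7, 0.936 for Myl4, 0.893 for Tnni3, 0.854 for Tnnt2 and 0.309 for Actc1, and on slide 2 (6 mice) it was 0.996, 0.975, 0.959, 0.969, 0.934 and 0.930. Slide 3 held 4 mice, too few for a value. By the mean log2 ratio of the 10 genes, mice 4 (-0.03), 14 (0.06), 18 (0.13) and 2 (0.35) were lowest, and mice 6 (3.61), 20 (2.82) and 5 (2.76) were highest. The 4 mice of slide 3, 1 from each group, lay between 2.23 and 2.82, those of slide 1 between 0.35 and 3.61 and those of slide 2 between -0.03 and 2.22, so each mouse of slide 3 lay above each mouse of slide 2. The part of the slide in these values was not tested.

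The Cy3 channel, which carried the same reference RNA on each array, also moved for some of the genes. The Cy3 intensity of Myh6 was 80 in mouse 4, where Cy5 was 182.5, and 993.5 in mouse 6, where Cy5 was 59160. Over the 18 mice, log2 Cy3 followed log2 Cy5 with r = 0.915 and rho = 0.909 for Myh6, 0.826 and 0.912 for Sln, 0.752 and 0.802 for Actc1 and 0.749 and 0.768 for Myl7 (adjusted permutation p over the 10 genes at most 0.000325 for r and 0.000875 for rho). Without the 2 mice farthest from the median Cy5 these r were 0.915, 0.850, 0.626 and 0.772. In Cy3 the probe was well above background on 16 of 18 arrays for Myh6, 3 for Sln, 18 for Actc1 and 10 for Myl7. The Cy3 intensity of Sln ran from 49.5 to 118, so most of its values lie near background. These intensities are not normalized, so they also hold each array's brightness. Tnni3 had r = 0.586 (adjusted permutation p = 0.0154) and rho = 0.558 (adjusted permutation p = 0.0349), with 0.438 without the 2 mice farthest from its median. For Myl4 r was -0.076 (adjusted permutation p = 0.845) and rho -0.139 (adjusted permutation p = 0.724), with Cy3 between 1234 and 1835 while Cy5 ran from 1022 to 52242. Where Cy3 rises with Cy5 the ratio is compressed. This bears most on Actc1, whose Cy5 intensity ran 5.93-fold, from 1911 to 11335, and whose Cy3 ran from 493 to 1828. The cause was not tested.

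**Figure D4:**
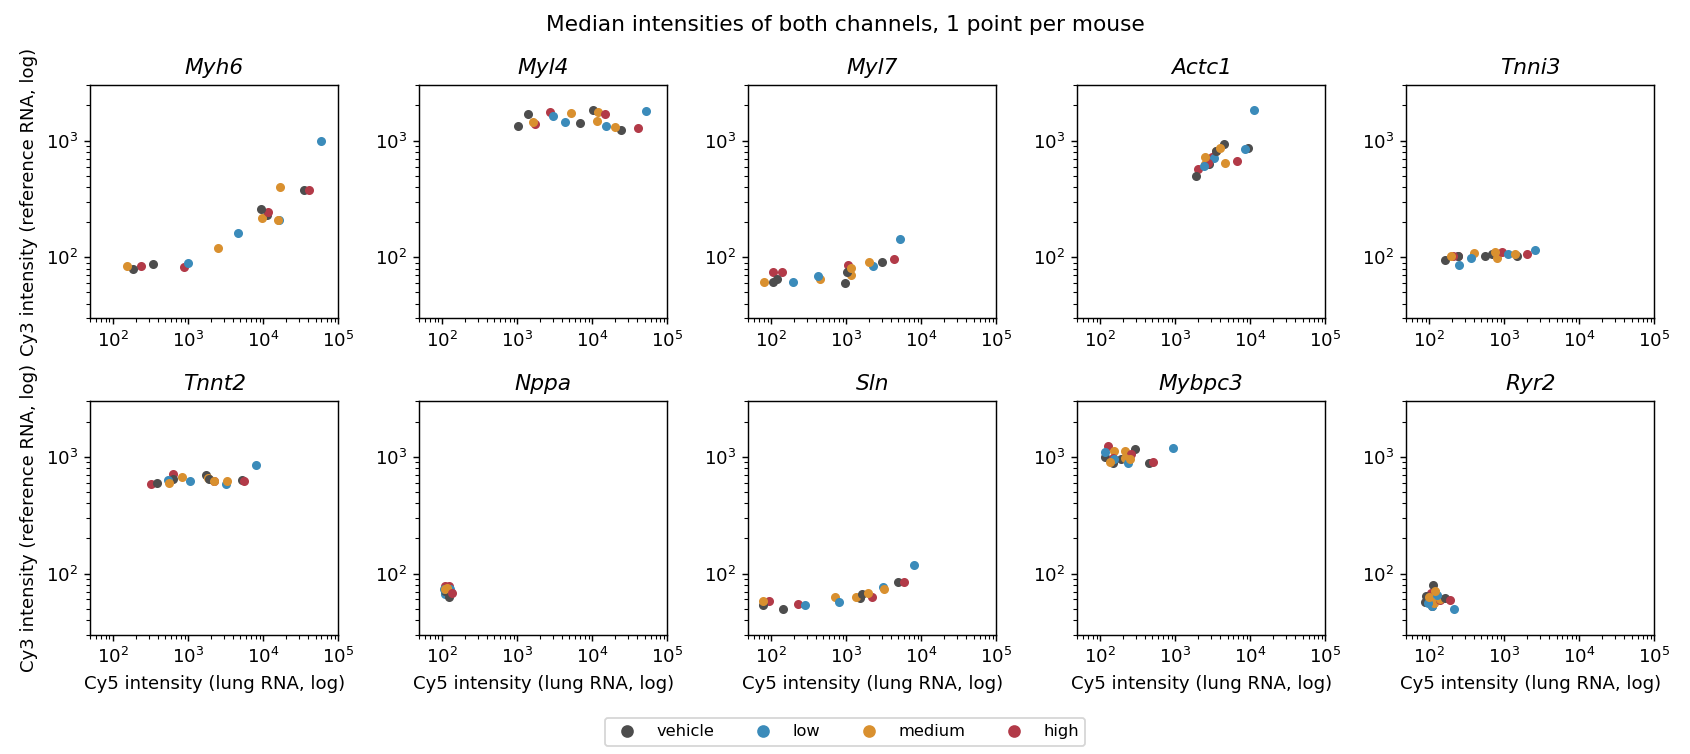
Median Cy3 intensity of the reference RNA (vertical axes, log scale) against median Cy5 intensity of the lung RNA (horizontal axes, log scale) for each gene, with 1 point per mouse coloured by group. Cy3 climbs with Cy5 for Myh6 from 80 to 993.5, and stays between 1234 and 1835 for Myl4.

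The dose comparison asked whether the 4PAH-Mix changed these genes. A probe was called at a limma adjusted p of 0.05 or less (Benjamini-Hochberg over all probes) and a fold change of at least 1.5. None of the 10 genes was called at the low dose (0.0898% of all probes were called), the medium dose (0.726%) or the high dose (1.2%), or in any difference among the 4 groups by limma's moderated F (1.12%). At an unadjusted limma p under 0.05 there was 1 gene at each dose, Ryr2 (low dose) and Actc1 (medium and high doses), where 8.01%, 15.3% and 15.7% of all probes lay under it. At each of the 3 doses, the dosed mice overlapped the vehicle mice for all 10 genes. The share of all probes with such an overlap is not given here, so this count does not set these genes apart. The lowest limma adjusted p was 0.622 (low dose), 0.284 (medium dose) and 0.286 (high dose). By two-sided exact permutation tests the lowest p was 0.0397 for Nppa at the medium dose, and each of the 30 values was 1 after adjustment over all of them. The smallest p these tests allow is 0.00794.

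The intervals of the changes were wide for the most variable genes. Myh6 differed from vehicle by 1.08 ± 1.20 (log2, limma SE, 95% interval -1.41 to 3.57) in low-dose mice, 0.27 ± 1.13 (-2.08 to 2.62) in medium-dose mice and -0.06 ± 1.20 (-2.55 to 2.44) in high-dose mice. For Sln the changes were 0.99 ± 1.19, 0.24 ± 1.12 and -0.16 ± 1.19, for Myl7 0.69 ± 1.06, 0.16 ± 0.99 and -0.45 ± 1.06, and for Myl4 0.99 ± 0.98, 0.46 ± 0.92 and 0.30 ± 0.98. Over these 4 genes and 3 doses the lower bounds of the 95% intervals lay between -2.64 and -1.04 and the upper bounds between 1.74 and 3.57. Tnni3 had changes of 0.61, 0.19 and 0.02, Tnnt2 of 0.44, 0.00097 and -0.38, and Mybpc3 of 0.12, -0.34 and -0.25. Over the 10 genes the median change from the low to the high dose was 0.53, 0.13 and -0.11, against 0.0031, 0.0037 and 0.0027 over all probes, and 10, 7 and 3 of them had values above 0, against 51.0%, 51.3% and 50.8% of all probes. The low-dose count and median rested on mouse 6: without it 5 of the 10 genes were above 0 and their median change was -0.0069. At the medium dose 1 gene was above 0 without vehicle mouse 4 (median -0.41) and 2 were without vehicle mouse 2 (median -0.27). With 1 mouse left out, the count above 0 ran from 1 to 7 at the medium dose and from 1 to 7 at the high dose. The 3 comparisons share the vehicle mice.

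Actc1 and Ryr2 were the genes with the lowest unadjusted p. Actc1 had a mean log2 ratio of 2.53 ± 0.40 (SD, n = 5) in vehicle mice, 2.61 ± 0.37 (n = 4) in low-dose, 2.15 ± 0.15 (n = 5) in medium-dose and 2.13 ± 0.31 (n = 4) in high-dose mice. The change was -0.38 ± 0.17 (SE, 95% interval -0.74 to -0.02) in medium-dose and -0.40 ± 0.18 (-0.78 to -0.02) in high-dose mice, with limma adjusted p of 0.284 and 0.286. With each array centred on its median in place of loess, these changes were -0.23 and -0.14. No dosed mouse lay below the lowest vehicle mouse, mouse 4. Ryr2 had a change of 0.44 ± 0.21 (0.0027 to 0.88) at the low dose, with a limma adjusted p of 0.622. Mouse 6 alone (1.62) lay above all vehicle mice for Ryr2 in that group.

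**Figure D5:**
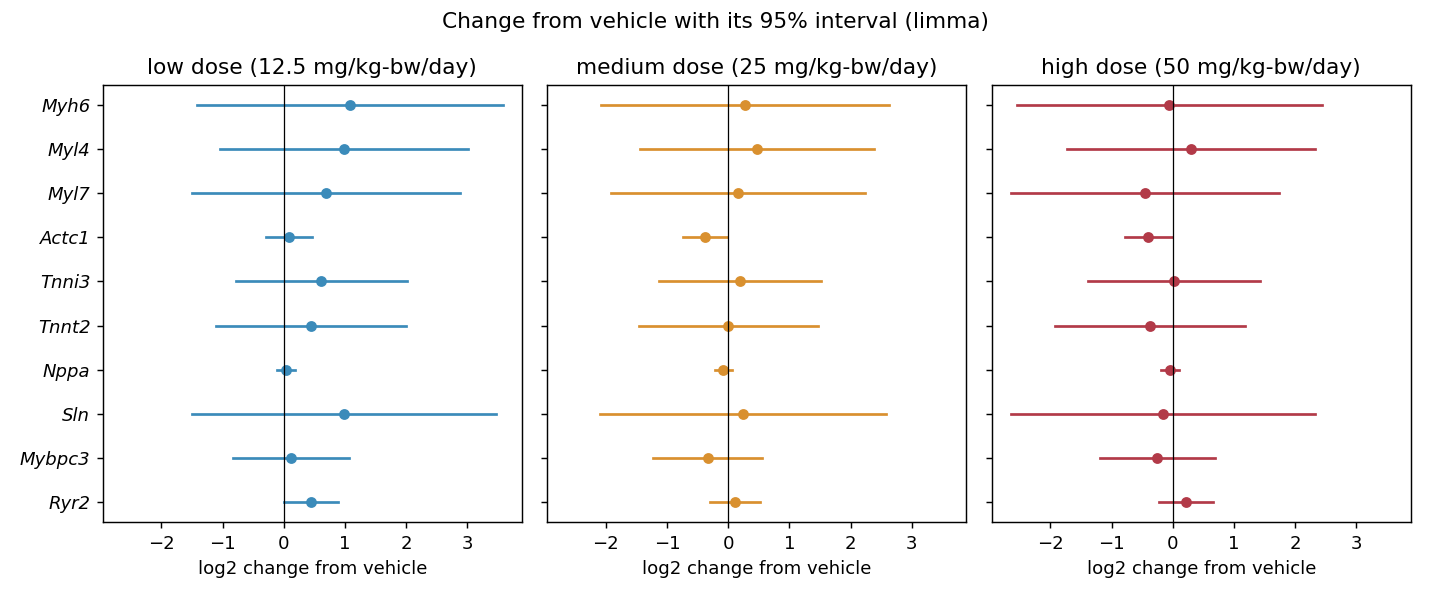
Log2 change from vehicle (horizontal axis) of the 10 genes at the low, medium and high dose, as points with 95% limma intervals. The interval of Myh6 at the low dose runs from -1.41 to 3.57, while Actc1 at the high dose runs from -0.78 to -0.02, and no gene passed the adjusted threshold.

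Within slides the changes of Myh6 went both ways. Against the mean of the vehicle mice of the same slide, the mean of the low dose was at 1.05 on slide 1, 1.83 on slide 2 and -0.46 on slide 3. The medium dose was at 1.07, -0.13 and -0.51, and the high dose at 0.46, -1.95 and -0.06. The mean of Actc1 was below that of its slide's vehicle mice on all 3 slides at the medium dose (-0.45, -0.12 and -0.77) and at the high dose (-0.56, -0.29 and -0.45). On slide 2, medium-dose mice 13 (2.31) and 14 (1.95) and high-dose mouse 18 (1.95) lay between vehicle mice 4 (1.94) and 3 (2.55). Each slide held 1 or 2 mice of a group, so these are values without a test. The mice also lay in 5 rows on the slides, with at most 1 mouse of a group in a row. Against the vehicle mouse of its row, Actc1 in the high-dose mouse was lower in 4 of 4 rows, by log2 values of -0.61, -0.51, -0.60 and -0.45. In the medium-dose mouse it was lower in 4 of 5 rows. The row without a high-dose mouse was that of vehicle mouse 4, which had the lowest Actc1 of all mice (1.94). The count of 4 of 4 therefore leaves that mouse out. The share of all probes lower in 4 of 4 rows is not given here. With the row as a block, an alternative chosen after seeing the data, the change of Actc1 was -0.49 ± 0.12 (SE) at the high dose with a limma adjusted p of 0.0197, past the p threshold, while its fold of 1.41 stayed under the limit of 1.5. In that fit 5.06% of all probes had an adjusted p of 0.05 or less at the high dose. At the medium dose the change was -0.38 ± 0.11 with a limma adjusted p of 0.0569. No other gene of the 10 passed an adjusted p of 0.05 at any dose in that fit. The labels do not say that mice of a row share anything else.

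Other heart muscle genes varied in the same mice. Of 14692 further named genes well above background in Cy5 on at least 9 arrays, 24 had an r over 0.9 with the mean of the 10 genes, on deviations from group means over 18 mice. The highest were Mb (myoglobin, 0.993), Ckmt2 (the mitochondrial creatine kinase of muscle, 0.989), Csrp3 (a Z-disc protein, 0.985), Myoz2 (0.978), Tcap (titin-cap, 0.978), Hamp (hepcidin, 0.971), Tnnc1 (cardiac troponin C, 0.969) and Tpm1 (alpha tropomyosin, 0.958). Then came Myl3 (0.951), Mybphl (0.949), Mapk10 (0.946), Myl1 (0.942), Ttn (titin, 0.941), Hrc (0.936) and Pgam2 (0.935). These genes were picked for this r, which is a description. Their log2 ratios spanned, for example, -0.36 to 4.00 for Mb and 0.30 to 4.53 for Myl3, and the lowest limma adjusted p of any of the 15 at any dose was 0.463, for Tcap.

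Of a wider list of 38 heart muscle genes, 37 were measured. None was called at any dose, and the median changes were 0.24, 0.03 and -0.02 from the low to the high dose. Among them, 10 had an r over 0.8 with Myh6, on deviations from group means, and the median r was 0.71. The cardiac transcription factor list was steadier: 13 of 13 were measured, 6 were well above background on all arrays and 4 on none, and the median residual SD was 0.19. Of 9 channel and gap junction genes, 5 were well above background on all arrays and 2 on none, the median r with Myh6 was -0.05, and none was called. Shox2 and Tbx18, transcription factors that act in the sinus node region, and the pacemaker channel gene Hcn4 were among those well above background on no array. These lists do not separate the muscle of the pulmonary veins from that of the left atrium, so the label rests on where the tissue was taken.

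Genes of other muscle types behaved differently among themselves. Myl2, the ventricular regulatory light chain, was well above background on 5 of 18 arrays and its log2 ratio stayed between -0.26 and 0.30. Myl3, the ventricular and slow muscle essential light chain, ranged from 0.30 to 4.53 with an r of 0.89 with Myh6. Myh7, the beta myosin heavy chain and a close relative of Myh6, stayed between 4.50 and 5.23 (residual SD 0.21). Cross-hybridization between these 2 was not tested. In the skeletal muscle list, Mylpf (the fast light chain) was well above background on 1 array. Acta1 (skeletal alpha actin) had a residual SD of 0.22, with dim Cy5 intensities of 103 to 230. On deviations from group means, Atp2a1 (the calcium pump of fast muscle) had an r of 0.68 with Myh6 and Tnnt1 (slow skeletal troponin T) an r of 0.64, with residual SDs of 0.23 and 0.65, and the median r of that list was -0.10. In the smooth muscle list Acta2 (0.33) and Myh11 (0.36) were steadier than Myh6.

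Summed Cy5 intensities of these lists, net of local background, also hold each array's brightness. The sum over the 10 genes was 3520 to 83386 in vehicle mice, 8121 to 147147 in low-dose, 4856 to 50528 in medium-dose and 4335 to 106276 in high-dose mice. The lung epithelium sum varied 1.44-fold over all mice (1154820 to 1659120). On a log2 scale, the sum of the wider heart muscle list followed log2 Cy5 of Myh6 with r = 0.897 and rho = 0.952 (both permutation p 1e-05 and 0.00011 after adjustment over the 11 lists), with 0.931 on slide 1 and 0.915 on slide 2. The skeletal muscle sum had r = 0.784 and rho = 0.843 (adjusted permutation p 0.0011 and 0.00022; slides 1 and 2, 0.862 and 0.689). Without mice 14 and 4 these r were 0.900 and 0.730. That list holds Tnnt1, whose Cy5 intensity ran from 838.5 to 6009. The sum of the ventricle list had r = 0.624 and rho = 0.717 (adjusted permutation p 0.015 and 0.00385), 0.698 without mice 14 and 4, 0.639 on slide 1 and 0.137 on slide 2. That list holds Myl3, with Cy5 intensities of 113 to 4555, and the brighter Myh7, with 4962 to 14777.5. The transcription factor sum had r = 0.605 and rho = 0.649 (adjusted permutation p 0.0182 and 0.00964), 0.612 without mice 14 and 4, 0.412 on slide 1 and 0.262 on slide 2. For the channels and gap junctions r was 0.487 and rho 0.567 (adjusted permutation p 0.0565 and 0.0243), 0.512 without mice 14 and 4, 0.311 on slide 1 and -0.195 on slide 2.

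Adipose genes also varied with the heart muscle genes. Their sum had r = 0.640 and rho = 0.589 with Myh6 (adjusted permutation p 0.0125 and 0.0206), 0.574 without mice 14 and 4, 0.254 on slide 1 and 0.599 on slide 2. It ran from 2566 to 13226 in vehicle mice, 2597 to 5590 in low-dose, 1029 to 11664 in medium-dose and 1500 to 34827 in high-dose mice. All 8 adipose genes were measured, 3 were well above background on all arrays, and Lep (leptin) was on none. On deviations from group means, r with Myh6 was 0.82 for Cfd, 0.79 for Car3, 0.73 for Adipoq and 0.63 for Cidea. It was 0.57 for Plin1, 0.25 for Ucp1, 0.02 for Lep and -0.16 for Cidec. The residual SD was 1.41 for Cfd and 1.24 for Car3, as wide as for the cardiac troponins, and the median of the list was 0.69. The lung epithelium sum had r = 0.591 and rho = 0.661 (adjusted permutation p 0.0182 and 0.00921), 0.480 without mice 14 and 4, 0.267 on slide 1 and 0.279 on slide 2. Smooth muscle had r = 0.580 and rho = 0.550 (adjusted permutation p 0.0182 and 0.0259), 0.602 without mice 14 and 4, 0.610 on slide 1 and 0.053 on slide 2. Log2 ratios of single genes are a different measure, normalized and centred on group means, so their r cannot be set against those of the sums. On deviations from group means, the median r with Myh6 was 0.60 for adipose, 0.42 for smooth muscle and 0.24 for lung epithelium genes. For the cartilage, thymus and mesothelium lists the adjusted permutation p of r was 0.549, 0.205 and 0.296, that of rho 0.478, 0.201 and 0.0321, and the mesothelium r was 0.275, and 0.614 without mice 14 and 4. No gene of any of the 11 lists was called at any dose. The part of these lists in the heart muscle values was not tested.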

How the data were processed

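The authors deposited, for each array, the scanner software's output with median Cy5 and Cy3 intensities and local background per spot and a log10 ratio, and a table of log2 ratios after LOWESS. Per the file headers the scanner software was Agilent Feature Extraction. Other columns used as deposited were flags for outlier, saturated and well-above-background spots. Here median intensities without background subtraction were normalized by loess within each array. Control and outlier spots had weight 0, outlier spots were left out, and spots of 1 probe were averaged. The table of log2 ratios ran in the same direction (lowest r 0.995 per array; column medians -0.03 to -0.02).

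Probes were named through RefSeq accessions of GRCm38.p6, which named 27235 of 55681. One limma (3.58.1, R 4.3.3) fit over 18 arrays and 4 groups gave each dose against vehicle and the moderated F. The methods' MAANOVA permutation test was not run, and limma stands in for it. The fit was tested on simulated data. Correlations used 100000 permutations. The number of arrays limits the precision.

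Members and lists were chosen with earlier results of these data known. The text names all members, the defining genes of other muscle types, the 15 genes outside the members most like their mean, and list genes past the threshold, of which there were none. Tnnt1, Atp2a1, Shox2, Tbx18, Hcn4, the adipose genes and the lung epithelium genes were named after their values were seen. Alternatives were the deposited table, the scanner software's log ratio, normexp background correction (offset 50), median centring, scale normalization, Cy5 alone, the slide as a block, the row on the slide as a block (chosen after seeing the data), only probes above background, only the groups compared, no fold change limit, the mean of a gene's probes and each mouse left out. Groups share no replicate numbers. The labels do not say that litters or batches were shared.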

Additional observations from a re-analysis of the deposited data

Results flagged for a closer look

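In 3 of 40 combinations of gene and group, 1 mouse stood apart from the others of its group by Dixon's 95% limit, and chance flags about 1 in 20. Myh6 in mouse 14 of the medium dose was 0.49, and the next lowest mouse of that group was at 4.25. Actc1 in mouse 20 of the high dose was 2.58, and the next highest was at 2.05. Ryr2 in mouse 6 of the low dose was 1.62, and the next highest was at 0.45.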

How the results depend on the processing

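No gene of the 10 was called at any dose or in any difference among the groups under any alternative, and with each mouse left out the count stayed at 0. The lowest limma adjusted p over all alternatives was 0.464 (low dose), 0.0569 (medium dose) and 0.0197 (high dose), the last 2 for Actc1 with the row on the slide as a block, where its high-dose fold of 1.41 stayed under the limit. The groups share no replicate numbers, so no analysis paired by number was possible.

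Several changes that were not called turned sign, and the cause was not tested. At the high dose Tnni3 was -0.0025 with normexp, -0.022 with the scanner software's ratio, -0.0090 on Cy5 alone, -0.14 with the slide as a block and -0.30 with the row as a block, where Myl4 was -0.14. Myh6 at the high dose was 0.27 with the scanner software's ratio, 0.13 with median centring and 0.12 with scale normalization, and at the medium dose -0.028 as the mean of its probes. With the scanner software's ratio Sln was 0.44 at the high dose, and Myl7 -0.010 and Tnnt2 -0.0054 at the medium dose. Tnnt2 at the medium dose was also -0.026 in the authors' table and -0.049 on Cy5 alone. Other values kept their sign and moved by over 1.5 times, most often with the scanner software's ratio (10 of 30), median centring (9) and Cy5 alone (8). With the scanner software's ratio Ryr2 was 1.78, 0.82 and 0.83 from the low to the high dose, Sln 1.80 at the low dose and Myl7 -1.06 at the high dose. With the row as a block Myh6 was -0.66, Sln -0.74, Myl7 -0.94 and Tnnt2 -0.68 at the high dose.

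With 1 mouse left out, changes at the low dose ran from 0.26 to 1.68 for Myh6, 0.13 to 1.59 for Myl4, 0.0067 to 1.36 for Myl7, 0.22 to 1.70 for Sln, 0.14 to 0.55 for Ryr2, -0.062 to 0.21 for Actc1, -0.040 to 1.05 for Tnni3, -0.22 to 1.02 for Tnnt2, -0.020 to 0.066 for Nppa and -0.55 to 0.51 for Mybpc3. At the medium dose they ran from -0.55 to 1.22 for Myh6, -0.11 to 0.98 for Myl4, -0.41 to 0.86 for Myl7, -0.19 to 0.56 for Tnni3, -0.46 to 0.36 for Tnnt2 and -0.53 to 1.08 for Sln. At the high dose they ran from -0.88 to 0.86 for Myh6, -0.46 to 0.86 for Myl4, -1.29 to 0.23 for Myl7, -0.46 to 0.41 for Tnni3, -0.94 to 0.14 for Tnnt2, -0.93 to 0.76 for Sln and -0.54 to 0.064 for Mybpc3. The signal of Nppa and Ryr2 lay near background, which limits what their values can show.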
